A study of Mus musculus with 9 samples.

Results

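ADAMTS and tolloid proteases are secreted zinc metalloproteases that cut the extracellular matrix. ADAMTS proteases are made as inactive precursors with a prodomain, a catalytic domain and thrombospondin repeats that hold them in the matrix. Some cleave large proteoglycans such as aggrecan and versican, and others trim procollagens. Tolloid proteases remove the C-terminal propeptides of fibrillar procollagens and cut chordin, an antagonist of bone morphogenetic proteins. In fat tissue the fibroblast-like precursors remodel their matrix as they become adipocytes, and both families act on that matrix. The genes described here are Tll1 and Bmp1, which encode tolloid proteases, and Adamts1, Adamts2, Adamts4, Adamts5, Adamts9, Adamts12 and Adamts15. They were selected by gene symbol, with the brightest probe set of each gene by its mean over the 9 arrays. Of the 9 genes named, 8 had a probe set assigned to them alone, out of 22180 genes named in this way, and all 8 lay above the filter on dim genes. Adamts2 was not analysed here. Each of the 8 had 1 such probe set, so that brightness made no choice among probe sets. The list was drawn up with earlier results known, among them that Tll1 and Adamts5 showed some of the largest changes from vehicle. The differences of these 2 genes from vehicle are therefore given as a description, with no test.

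The samples were 3T3-L1 cells, mouse fibroblasts widely used to study how fat cells form, taken as confluent, growth-arrested pre-adipocytes. Of the 3 groups of 3 arrays, the first received siRNA against CD24, a surface glycoprotein, and then IBMX and dexamethasone (IBMX/Dex) for 6 h. The second received a scrambled control siRNA at the same amount, 100 nmol, and the same IBMX/Dex, at 0.5 mM and 1 µM, and the third was treated with vehicle. IBMX inhibits phosphodiesterases and so raises cAMP, and dexamethasone activates the glucocorticoid receptor. The labels do not say whether vehicle cells were transfected, so effects of IBMX/Dex and of transfection cannot be told apart in the comparisons with vehicle. The sample titles give no duration for the vehicle treatment. Whether each replicate was its own culture is likewise not stated, and the p-values cover no more than the spread among these arrays, which may be technical.

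Values are on a log2 scale, 1 array per sample, with array medians between 6.47 and 6.56, and the number of arrays limits the precision. All 9 pre-adipocyte and fibroblast markers that could be measured lay above the filter level of 6.51, the median of all values, with Vim the brightest at a mean of 13.49. Their summed linear signal, expressed in log2 units, was 14.75 to 14.85 with CD24 siRNA and IBMX/Dex, 14.74 to 14.83 with scrambled siRNA and IBMX/Dex, and 15.04 to 15.12 with vehicle, a difference whose part in the results below was not tested. Of the mature adipocyte markers Adipoq, Lep, Plin1 and Cidec lay below the filter level, whereas Fabp4 (mean 9.60) and Retn (6.64) did not. Of the macrophage markers Ptprc and Adgre1 lay below it and the other 4 of 6 above it, with Cd14 the brightest (8.61). Above it were also 1 of 5 endothelial markers (Cdh5, 6.75), 2 of 5 epithelial markers (Krt14, 6.83, and Krt8, 6.54), all 5 skeletal muscle markers (Tnnt2 the brightest, 7.88) and 3 of 5 chondrocyte markers (Sox9 the brightest, 10.47, with Acan below it). For each of these 6 cell types the summed signals of the vehicle arrays overlapped with those of both IBMX/Dex groups, and their part in the results was not tested. The siRNA target Cd24a stood at 10.15, 10.16 and 11.72 with CD24 siRNA, at 11.19, 11.73 and 11.81 with scrambled siRNA and at 8.88, 9.92 and 9.49 with vehicle, in the order of the replicate numbers. A second, dimmer probe set of Cd24a gave 7.22, 6.68 and 9.08 with CD24 siRNA, 9.28, 8.72 and 9.25 with scrambled siRNA and 6.78, 6.42 and 6.69 with vehicle. On both probe sets the array labelled CD24 siRNA replicate 3 was at the level of the scrambled arrays, and the CD24 siRNA results of the protease genes and of the list genes named are also given without it.

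The promoter windows of 5 of the 9 genes were in the RefSeq table used here (GRCm38.p6), each reaching from 250 bases before to 50 bases after the annotated start. Those of Tll1 and Adamts9, the 2 genes with higher values under IBMX/Dex, and of Adamts1, whose difference was not called, are printed 5′ to 3′ on the strand of the gene. Capitals mark TGACG, the short form of the cAMP response element. The windows lie at chr8:64205959-64206258 (minus strand) for Tll1, at chr6:92943485-92943784 (minus strand) for Adamts9 and at chr16:85803064-85803363 (minus strand) for Adamts1.
Tll1: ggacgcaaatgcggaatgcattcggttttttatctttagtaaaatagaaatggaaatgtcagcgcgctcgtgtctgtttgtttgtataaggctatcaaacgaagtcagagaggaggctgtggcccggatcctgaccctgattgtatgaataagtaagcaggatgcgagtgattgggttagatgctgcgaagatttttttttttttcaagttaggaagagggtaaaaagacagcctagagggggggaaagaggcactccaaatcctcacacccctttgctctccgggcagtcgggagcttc
Adamts9: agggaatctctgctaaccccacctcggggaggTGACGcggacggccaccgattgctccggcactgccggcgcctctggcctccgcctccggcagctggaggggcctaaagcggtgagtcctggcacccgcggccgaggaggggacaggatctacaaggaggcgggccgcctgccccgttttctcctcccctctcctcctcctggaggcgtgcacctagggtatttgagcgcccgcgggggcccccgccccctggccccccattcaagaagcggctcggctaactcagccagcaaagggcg
Adamts1: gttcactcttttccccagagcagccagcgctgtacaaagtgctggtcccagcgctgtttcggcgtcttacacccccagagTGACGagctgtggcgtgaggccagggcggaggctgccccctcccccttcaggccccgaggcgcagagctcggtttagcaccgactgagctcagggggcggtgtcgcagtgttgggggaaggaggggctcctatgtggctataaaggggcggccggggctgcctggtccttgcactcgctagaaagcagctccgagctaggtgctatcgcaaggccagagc
The search covered both strands. TGACG occurred in Adamts9 at bases -218 to -214 from the start, in Adamts1 at -170 to -166 and in Adamts12 at -205 to -201, and was not in the windows of Tll1 and Adamts2. It occurred in 20.8% of all 32851 windows of this length. The full element TGACGTCA, which contains TGACG, was in 1.79% of all windows and in none of the 5. AGAACA, the short form of the glucocorticoid response element, was in 19% of all windows and in none of the 5, and the full palindromic element was in 0.00913% of all windows. These matches describe the letters in the windows alone. TGACG was thus held by Adamts9, which was higher with IBMX/Dex, and by Adamts1 and Adamts12, which were not called. Whether these letters bear on the levels was not tested. On the chromosome Adamts1 and Adamts5 were each other's neighbours among protein-coding genes in that assembly, as were Adamts15 and Adamts8.

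The first question was how IBMX/Dex related to the level of each protease gene. Tll1 and Adamts9 were higher and Adamts5 was lower than with vehicle, in both siRNA groups. With Tll1 and Adamts5 described only, 6 genes were tested in limma, with Benjamini-Hochberg adjustment over 12630 genes. Of the 6, 1 (Adamts9) had an adjusted p under 0.05 with CD24 siRNA and IBMX/Dex against vehicle, where the share over all genes was 6.65% (2.92% higher and 3.73% lower, and 22.4% in all with the replicate number as a block). With scrambled siRNA and IBMX/Dex it was again 1 of 6, Adamts9, beside 6.94% of all genes (3.33% higher and 3.6% lower, and 23.3% in all with the block). Since the genes were listed with these results known, nothing is read from the counts. The median difference of the 8 was 0.11 log2 units with CD24 siRNA and 0.15 with scrambled siRNA, beside 0.02 and 0.02 over all genes tested. Both comparisons use the same vehicle arrays. In bulk samples, fewer cells of a type and less RNA per cell cannot be told apart.

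**Figure D1:**
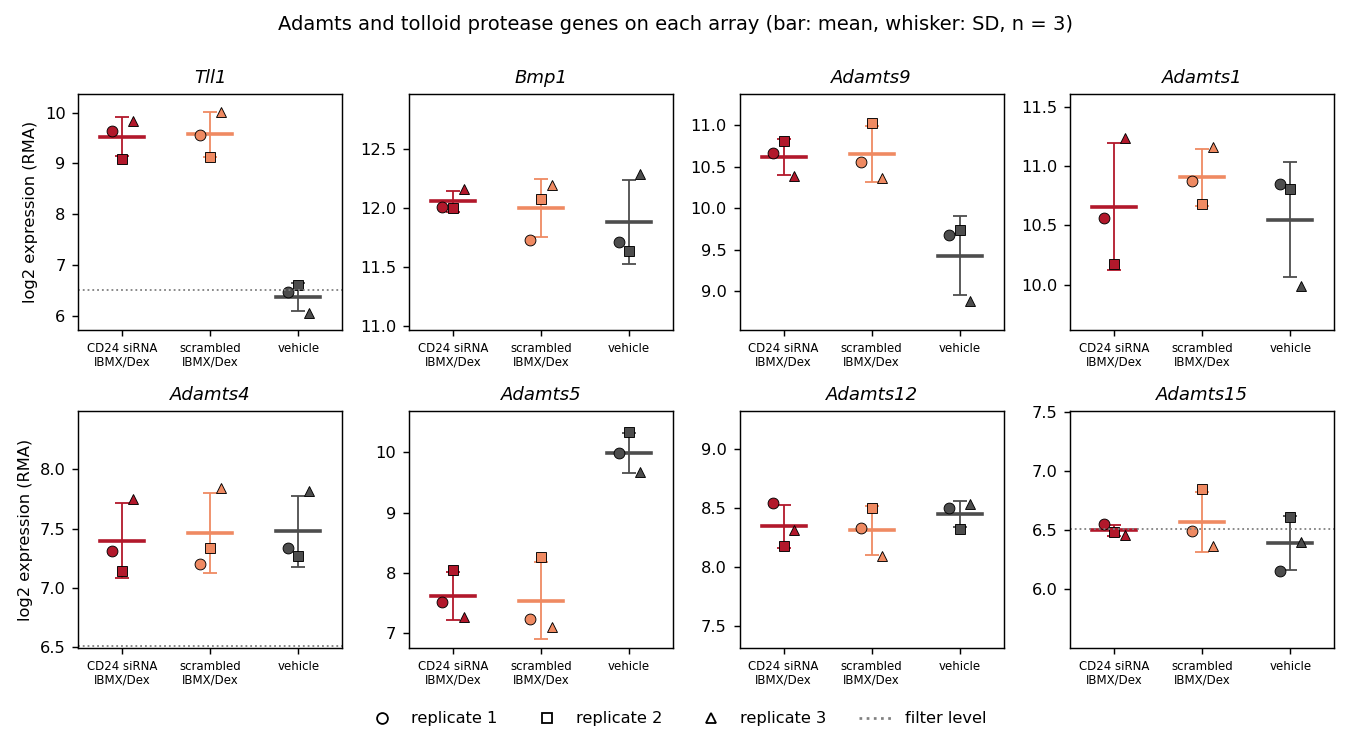
The log2 expression of 8 protease genes on each of the 9 arrays is plotted by group, with the mean as a bar, the SD as a whisker (n = 3) and a dotted line at the filter level of 6.51 where it falls in the panel, each panel with its own axis. Tll1 and Adamts9 lie higher on all 6 IBMX/Dex arrays than on any vehicle array, Adamts5 lies lower, and the groups overlap for the other 5 genes.

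Tll1 (probe set 17509591) encodes a tolloid-like protease that processes procollagen and cleaves chordin. It stood at 9.63, 9.09 and 9.84 with CD24 siRNA and IBMX/Dex, at 9.55, 9.13 and 10.02 with scrambled siRNA and IBMX/Dex, and at 6.46, 6.59 and 6.06 with vehicle. No IBMX/Dex array came within 2.50 log2 units of the vehicle array of its number. On the vehicle arrays the probe set was dim, since 2 of the 3 values lay below the filter level of 6.51, and the gene passed the filter through its IBMX/Dex arrays. The log2 difference from vehicle was 3.15 ± 0.26 SE in the CD24 siRNA group and 3.20 ± 0.26 SE in the scrambled group, and no fold is given because of the dim vehicle values. The same-numbered differences ranged from 2.50 to 3.78 with CD24 siRNA and from 2.54 to 3.96 with scrambled siRNA. In both groups replicate 2 gave the smallest and replicate 3 the largest.

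Bmp1 encodes the founding member of the tolloid family, the main procollagen C-proteinase. It was bright on every array. Its values were 12.01, 12.00 and 12.16 with CD24 siRNA and IBMX/Dex, 11.73, 12.07 and 12.20 with scrambled siRNA and IBMX/Dex, and 11.71, 11.64 and 12.29 with vehicle. The groups overlapped, and the highest value of all was a vehicle array. The log2 difference from vehicle was 0.18 (95% interval -0.25 to 0.60, limma adjusted p = 0.649) with CD24 siRNA and 0.12 (-0.31 to 0.54, adjusted p = 0.770) with scrambled siRNA. The upper bounds equal 1.52-fold and 1.46-fold.

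Adamts9 (probe set 17469136) encodes a large ADAMTS protease that cleaves versican and aggrecan. Its values were 10.66, 10.81 and 10.38 with CD24 siRNA and IBMX/Dex, 10.56, 11.03 and 10.37 with scrambled siRNA and IBMX/Dex, and 9.68, 9.73 and 8.88 with vehicle. The IBMX/Dex arrays did not overlap with the vehicle arrays, which held also for 25.8% of all genes with CD24 siRNA and for 25.2% with scrambled siRNA. Adamts9 rose 2.28-fold with CD24 siRNA and IBMX/Dex (log2 difference 1.19 ± 0.25 SE, limma adjusted p = 0.0276) and 2.34-fold with scrambled siRNA and IBMX/Dex (1.22 ± 0.25 SE, adjusted p = 0.0243). The adjustment ran over all genes tested. Adamts9 was still listed with earlier results of these data known, so its p-values are no independent test. In each group 3 of 3 arrays were above the vehicle array of their number. With the replicate block on all 9 arrays the limma adjusted p was 0.000366 with CD24 siRNA and 0.000292 with scrambled siRNA. Without the block the call was near the threshold. For CD24 siRNA it was lost without CD24 siRNA replicate 1 (adjusted p = 0.0865), 2 (0.0968) or 3 (0.0620) or vehicle replicate 3 (0.0586), and for scrambled siRNA without scrambled replicate 1 (0.0561) or 2 (0.0757). With the replicate block it was kept on leaving out any 1 of the 9 arrays (adjusted p between 0.000361 and 0.00348 over both comparisons).

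Adamts5 (probe set 17331720) encodes the main aggrecan-degrading protease of mouse cartilage, which also cleaves versican. It stood at 7.53, 8.05 and 7.27 with CD24 siRNA and IBMX/Dex, at 7.24, 8.27 and 7.11 with scrambled siRNA and IBMX/Dex, and at 9.99, 10.33 and 9.66 with vehicle. The lowest vehicle array was above the highest IBMX/Dex array. Of all genes tested, 25.8% likewise did not overlap with vehicle in the CD24 siRNA group, and 25.2% in the scrambled group. The level was 5.19-fold lower than with vehicle in the CD24 siRNA group (log2 difference -2.38 ± 0.33 SE) and 5.47-fold lower in the scrambled group (-2.45 ± 0.33 SE). The same-numbered differences were -2.46, -2.28 and -2.39 with CD24 siRNA and -2.74, -2.06 and -2.56 with scrambled siRNA. In each of the 3 groups replicate 2 was the highest array and replicate 3 the lowest.

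Adamts1, the neighbour of Adamts5, encodes an ADAMTS protease that cleaves versican and is known as a target of progesterone in the ovary. Its values were 10.57, 10.17 and 11.24 with CD24 siRNA and IBMX/Dex, 10.88, 10.68 and 11.16 with scrambled siRNA and IBMX/Dex, and 10.85, 10.81 and 9.98 with vehicle. The pairs split by number: replicates 1 and 2 differed from vehicle by -0.28 and -0.63 with CD24 siRNA and by 0.03 and -0.13 with scrambled siRNA, whereas replicate 3 was higher by 1.25 and 1.18. Vehicle replicate 3 was the lowest of the 9 arrays for this gene. Over all arrays the difference from vehicle was 0.11 (95% interval -0.58 to 0.80, limma adjusted p = 0.880) with CD24 siRNA and 0.36 (-0.33 to 1.05, adjusted p = 0.544) with scrambled siRNA. Without vehicle replicate 3 these were -0.17 and 0.08. Adamts1 was therefore not called in either comparison, and a 2-fold change lies within the interval for scrambled siRNA.

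Adamts4 encodes a further aggrecanase. Its values were 7.31, 7.14 and 7.75 with CD24 siRNA and IBMX/Dex, 7.20, 7.34 and 7.84 with scrambled siRNA and IBMX/Dex, and 7.34, 7.27 and 7.82 with vehicle, so that replicate 3 was the highest array of every group. With CD24 siRNA it differed from vehicle by -0.08 (95% interval -0.59 to 0.44, limma adjusted p = 0.891), and with scrambled siRNA by -0.01 (-0.53 to 0.50, adjusted p = 0.979). With the replicate block the intervals narrowed to -0.29 to 0.14 and -0.23 to 0.20. Adamts15 encodes another protease that cleaves versican. It was dim: its values lay between 6.46 and 6.55 with CD24 siRNA and IBMX/Dex, between 6.36 and 6.85 with scrambled siRNA and IBMX/Dex, and between 6.16 and 6.61 with vehicle, and 3 of 9 arrays reached the filter level. The differences from vehicle were 0.11 (adjusted p = 0.750) and 0.18 (adjusted p = 0.562). Adamts12, whose product cleaves cartilage oligomeric matrix protein, lay between 8.18 and 8.54 with CD24 siRNA and IBMX/Dex, between 8.09 and 8.50 with scrambled siRNA and IBMX/Dex, and between 8.32 and 8.53 with vehicle. The differences from vehicle were -0.11 (95% interval -0.43 to 0.21, adjusted p = 0.724) and -0.14 (-0.46 to 0.18, adjusted p = 0.615), intervals that do not include a 2-fold change.

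**Figure D2:**
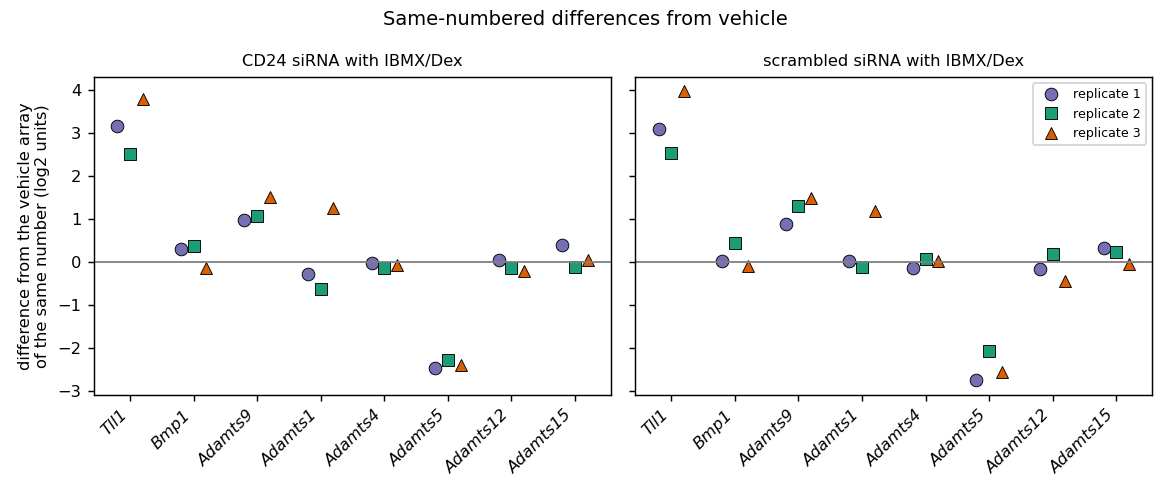
The difference in log2 expression between each IBMX/Dex array and the vehicle array of the same replicate number is plotted for 8 genes, with CD24 siRNA on the left and scrambled siRNA on the right. Tll1 and Adamts9 lie above 0 and Adamts5 below 0 for all 3 numbers, and for Adamts1 replicate 3 stands at 1.25 and 1.18 while the other numbers lie between -0.63 and 0.03.

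The next comparison asked whether the CD24 siRNA changed these levels under IBMX/Dex. The target Cd24a itself was not called in limma between CD24 siRNA and scrambled siRNA, with or without the replicate block. Its difference was -0.90 log2 units (95% interval -1.87 to 0.06), with same-numbered differences of -1.04, -1.57 and -0.10. With CD24 siRNA it stood 1.24 log2 units above vehicle (limma adjusted p = 0.124, or 0.0143 with the block). The protease results below thus cannot be set against a called fall of Cd24a. None of the 8 genes was called in limma between CD24 siRNA and scrambled siRNA (adjusted p = 1 for each), and 0 of the 8 had an unadjusted p under 0.05, with or without the replicate block. Of all 12630 genes 0 were called (0% with or without the block), and 30 had an unadjusted p under 0.05 (219 with the block). The 2 siRNA groups overlapped for all 8, so 0 of 8 stood apart, beside 2.41% of all genes. For Tll1 the difference between CD24 siRNA and scrambled siRNA was -0.05 log2 units (95% interval -0.64 to 0.54), for Adamts9 it was -0.04 (-0.61 to 0.54) and for Adamts5 it was 0.08 (-0.66 to 0.81). With the replicate block the interval of Adamts5 was -0.22 to 0.37, that of Adamts9 -0.33 to 0.26 and that of Tll1 -0.56 to 0.46. Among the other 5, Adamts1 had the largest difference, -0.25 (-0.93 to 0.44), with pairs of -0.31, -0.51 and 0.08, and Adamts4, Adamts12, Adamts15 and Bmp1 differed by between -0.07 and 0.06.

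The array labelled CD24 siRNA replicate 3 bears on this comparison, since its Cd24a level was that of the scrambled arrays. Without it the difference between CD24 siRNA and scrambled siRNA was -0.21 for Tll1, 0.08 for Adamts9, 0.25 for Adamts5, -0.54 for Adamts1 and -0.24 for Adamts4 (limma adjusted p = 1 for each). For Adamts12, Adamts15 and Bmp1 it was 0.05, -0.05 and 0.0066. None of the 8 was called in this setting either. Against vehicle, Tll1 then had a log2 difference of 2.99, Adamts5 one of -2.20 and Adamts9 one of 1.31 (adjusted p = 0.0620, or 0.00292 with the block). The difference of Adamts1 from vehicle was -0.18 (adjusted p = 0.801) without that array and 0.11 with it, and Adamts4 stood at -0.25 (adjusted p = 0.621), while Adamts12, Adamts15 and Bmp1 stood at -0.09, 0.13 and 0.13.

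**Figure D3:**
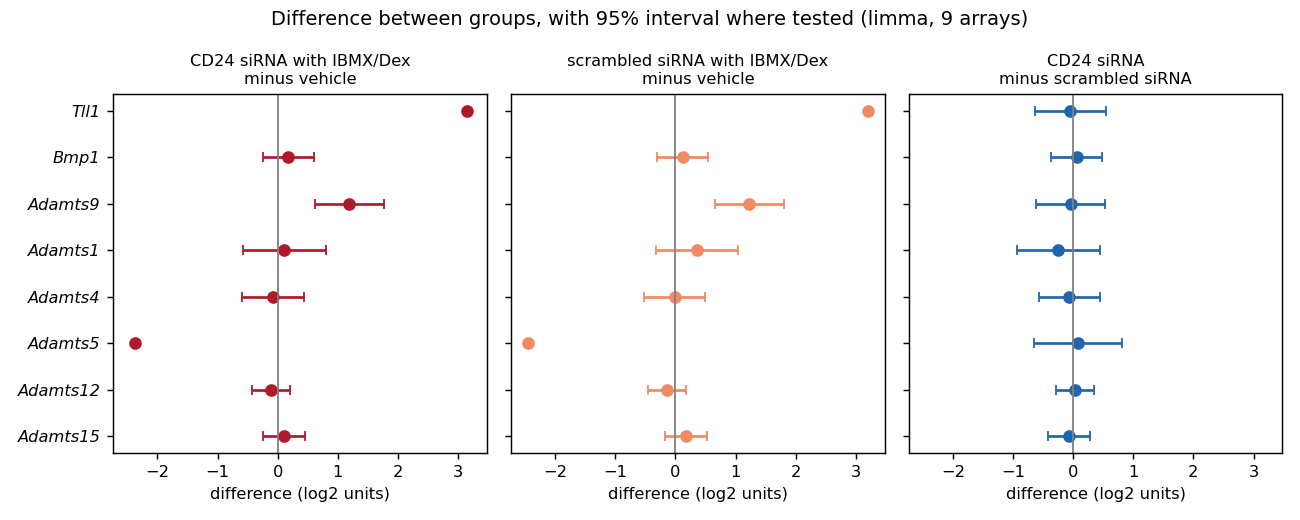
Points give the difference between group means in log2 units for 8 genes in 3 comparisons, and bars give the 95% interval from limma on 9 arrays without a block, with none for Tll1 and Adamts5 against vehicle. The interval for Adamts9 lies above 0 in both comparisons with vehicle, while all 8 intervals include 0 between CD24 siRNA and scrambled siRNA.

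The rest of the family was looked at through lists of textbook membership. Of 13 other ADAMTS and tolloid genes, 4 passed the filter on dim genes: Adamts6, Adamts7, Adamts10 and Adamts14. None of the 4 was called against vehicle in limma, and 1, Adamts7, was lower with the block, beside blocked shares of 12.1% and 11.4% of all genes lower. The 9 below the filter were Adamts3, Adamts8, Adamts13, Adamts16, Adamts17, Adamts18, Adamts19, Adamts20 and Tll2, with means between 5.14 and 6.39. Adamts7, whose product cleaves cartilage oligomeric matrix protein as that of Adamts12 does, stood at 8.77, 8.61 and 9.45 with CD24 siRNA and IBMX/Dex, at 8.57, 8.76 and 9.71 with scrambled siRNA and IBMX/Dex, and at 9.61, 9.50 and 11.13 with vehicle. Its differences were -1.14 (adjusted p = 0.185, or 0.00143 with the block) and -1.07 (adjusted p = 0.208, or 0.00180 with the block), with all same-numbered differences negative. The median difference of the 4 was -0.32 with CD24 siRNA and -0.25 with scrambled siRNA, beside 0.02 and 0.02 over all genes tested.

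Of 7 ADAMTS-like proteins, which share the thrombospondin repeats but have no catalytic domain, 3 were tested and 1, Adamtsl5, was called, beside 3.73% of all genes called lower with CD24 siRNA and 3.6% with scrambled siRNA. Adamtsl5 fell by 0.73 log2 units with CD24 siRNA and IBMX/Dex (limma adjusted p = 0.0350, or 0.00452 with the block). With scrambled siRNA and IBMX/Dex it fell by 0.69 (adjusted p = 0.0403, or 0.00565 with the block). Without the block these calls were fragile. On leaving out 1 array the call with CD24 siRNA was lost in 6 of 9 fits. It was kept without CD24 siRNA replicate 1, scrambled replicate 1 or vehicle replicate 2. The call with scrambled siRNA was lost in 7 of 9, and kept without CD24 siRNA replicate 1 or vehicle replicate 2. The median difference of the 3 was -0.0029 with CD24 siRNA and 0.04 with scrambled siRNA. Of 11 convertases, inhibitors and clearance genes 8 were tested and none was called without the block, beside 6.65% and 6.94% of all genes, with a median of 0.17 with CD24 siRNA and 0.21 with scrambled siRNA. With the block 2 of the 8 were called, both higher, beside 10.4% and 11.9% of all genes higher and 22.4% and 23.3% in either direction. Sdc4, which encodes a syndecan that takes part in the activation of ADAMTS5, had differences of 0.75 (adjusted p = 0.0994, or 0.00236 with the block) and 0.84 (adjusted p = 0.0691, or 0.00129 with the block). The metalloprotease inhibitor gene Timp1 differed by 0.40 (adjusted p = 0.302, or 0.0309 with the block) and 0.37 (adjusted p = 0.336, or 0.0404 with the block).

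Of 10 substrates of ADAMTS proteases, 7 were tested and 1 rose, beside 2.92% of all genes called higher with CD24 siRNA and 3.33% with scrambled siRNA. This was Vcan, which encodes versican, the large proteoglycan cleaved by the products of Adamts1, Adamts4, Adamts5, Adamts9 and Adamts15. Vcan stood at 12.78, 12.78 and 12.89 with CD24 siRNA and IBMX/Dex, at 12.65, 12.90 and 12.90 with scrambled siRNA and IBMX/Dex, and at 11.59, 11.89 and 11.75 with vehicle. Its log2 difference was 1.07 ± 0.12 SE in each siRNA group (limma adjusted p = 0.00169 with CD24 siRNA and 0.00154 with scrambled siRNA), and it was called in all 9 fits that left out 1 array. The list had a median of -0.05 and 0.04 beside 0.02 and 0.02 over all genes. Acan, which encodes aggrecan, lay below the filter with a mean of 5.86. The transcript of a versican-cleaving protease, Adamts5, and that of versican thus differed from vehicle in opposite directions, while Adamts9 and Vcan were both higher. Adamts1, Adamts4 and Adamts15 were not called against vehicle. A relation between the protease and versican transcripts was not tested.

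Of 17 partners and substrates of tolloid proteases 15 were tested, with a median difference of -0.11 with CD24 siRNA and -0.14 with scrambled siRNA. Pcolce2, which encodes an enhancer of procollagen C-proteinase activity, was the 1 that rose, beside the same shares of all genes. Its values were 8.29, 8.20 and 7.94 with CD24 siRNA and IBMX/Dex, 8.22, 8.22 and 7.94 with scrambled siRNA and IBMX/Dex, and 7.19, 7.14 and 7.66 with vehicle. The difference was 0.81 ± 0.17 SE with CD24 siRNA (limma adjusted p = 0.0239, or 0.00788 with the block). With scrambled siRNA it was 0.79 ± 0.17 SE (adjusted p = 0.0255, or 0.00843 with the block). On leaving out 1 array without the block, the call with CD24 siRNA was lost in 4 of 9 fits. These left out CD24 siRNA replicate 1 or 2 or vehicle replicate 1 or 2. With scrambled siRNA the call was lost in 5 of 9, those without any 1 scrambled replicate or vehicle replicate 1 or 2. The remaining calls in this list came with the block alone. Col3a1 differed from vehicle by -0.70 (adjusted p = 0.0539, or 0.00285 with the block) and -0.51 (adjusted p = 0.138, or 0.0120 with the block), and Col1a2 by -0.49 (adjusted p = 0.114, or 0.00666 with the block) and -0.59 (adjusted p = 0.0663, or 0.00275 with the block). Col1a1 passed with the block for scrambled siRNA, with a difference of -0.45 (adjusted p = 0.330, or 0.0132 with the block). These 3 genes encode the chains of type I and type III collagen. The small proteoglycan gene Ogn passed with the block for CD24 siRNA, with a difference of -0.93 (adjusted p = 0.561, or 0.0267 with the block). Its same-numbered differences were -1.43, -1.36 and 0.0026, so the fall came from replicates 1 and 2. Replicate 3 of Ogn lay below the filter level in every group, at 6.40 with CD24 siRNA, 6.39 with scrambled siRNA and 6.39 with vehicle. The chordin gene Chrd passed with the block for scrambled siRNA, with a difference of 0.39 (adjusted p = 0.125, or 0.0450 with the block). With the block 1 gene rose and 3 fell of the 15 with CD24 siRNA, and 2 rose and 3 fell with scrambled siRNA, beside blocked shares of 10.4% higher and 12.1% lower, and 11.9% higher and 11.4% lower, over all genes. Between CD24 siRNA and scrambled siRNA limma called no gene of these lists, with or without the block.

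With the array labelled CD24 siRNA replicate 3 left out, the differences of CD24 siRNA from vehicle were 1.04 for Vcan (limma adjusted p = 0.0114), 0.91 for Pcolce2 (adjusted p = 0.0451) and -0.63 for Adamtsl5 (adjusted p = 0.119). With the block they were 1.06 for Vcan (limma adjusted p = 0.00129), 0.95 for Pcolce2 (adjusted p = 0.0119) and -0.57 for Adamtsl5 (adjusted p = 0.0208). Without the block, the differences of the genes called with the block alone were -1.39 for Adamts7, 0.67 for Sdc4 and 0.48 for Timp1. For Col3a1, Col1a2 and Ogn they were -0.67, -0.39 and -0.58. With the block and without that array they were -0.96 for Adamts7 (adjusted p = 0.00669), 0.72 for Sdc4 (adjusted p = 0.0147), 0.46 for Timp1 (adjusted p = 0.0487), -0.72 for Col3a1 (adjusted p = 0.0133), -0.51 for Col1a2 (adjusted p = 0.0259) and -1.33 for Ogn (adjusted p = 0.00213). For Ogn the difference without the block thus shrank from -0.93 on all 9 arrays to -0.58, whereas with the block it grew to -1.33.

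**Figure D4:**
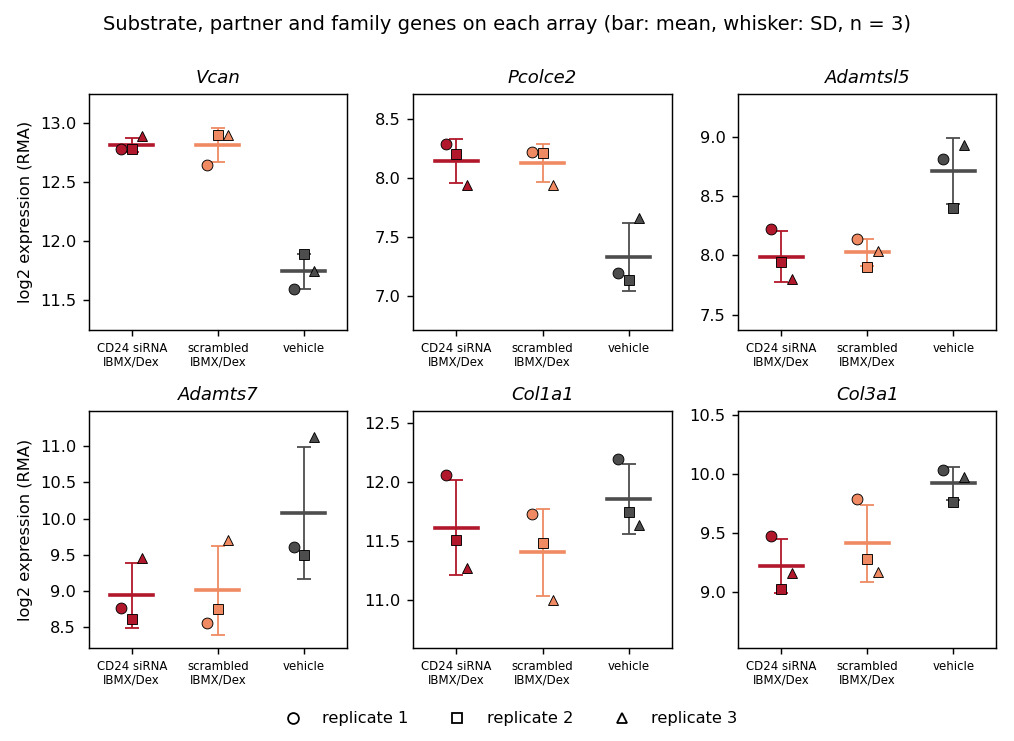
The log2 expression of 6 substrate, partner and family genes on each of the 9 arrays is plotted by group, with the mean as a bar and the SD as a whisker (n = 3), each panel with its own axis. Vcan lies between 12.65 and 12.90 on the IBMX/Dex arrays and between 11.59 and 11.89 on the vehicle arrays, and for Adamts7 vehicle replicate 3 stands apart at 11.13.

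The genes whose values followed those of a protease most closely over the 9 arrays were found by Pearson's r among 12622 other genes tested. For Tll1 they were Top1 (r = 0.993), Uap1 (r = 0.990) and Parm1 (r = 0.989), for Adamts9 Gmps (r = 0.986), Eif4a3 (r = 0.983) and Dpf1 (r = 0.979), and for Adamts5 Erbin (r = 0.991), Fads2 (r = 0.984) and Nfe2l1 (r = 0.982). For the other 5 the closest genes were Zfp712 for Adamts1 (r = 0.976), Cdh13 for Adamts4 (r = 0.987), Lin28a for Adamts12 (r = 0.933), Scp2 for Adamts15 (r = 0.918) and Hectd4 for Bmp1 (r = 0.979). Each is the highest of many correlations over 9 arrays that share replicate numbers, and is a description of these arrays.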

How the data were processed

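The deposited table gives 41345 probe sets for each of 9 single-colour arrays, in log2 units. The authors obtained the log2 values by RMA in the oligo package, per the submitters' processing notes; no version is stated in the sources used here. The values were used as deposited. Sample titles gave the groups and the replicate numbers. By the annotation table of the platform, 23521 probe sets carried a single symbol. Another 1814 carried several and 16010 were unnamed here, and both kinds were left out. The brightest probe set by mean over 9 arrays stood for each of 22180 genes. The filter kept 12630 genes with at least 3 of 9 values at or above the median of all values, 6.51.

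Tests used limma 3.58.1 in R 4.3.3 (lmFit, then eBayes), fitted to all 9 arrays with 1 mean per group and Benjamini-Hochberg adjustment over all genes tested in a comparison, at a threshold of 0.05, two-sided. The fit was tested on simulated data, without the block where replicate numbers shared no deviations and with it where they did. The main fit, without the block on arrays that share such deviations, was not covered by the simulation. The members and lists were chosen with earlier results of these data known. The text names all members, list genes that passed with or without the block, and the genes most like each member by Pearson's r. Of these last, 3 are named for each of Tll1, Adamts9 and Adamts5, and the first of the 3 for the others. Genes of a list named for being below the filter were added after their values were seen.

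Arrays with the same number shared deviations from the means of their groups (r between 0.377 and 0.732 across genes, no more than 0.116 where numbers differed), and for 9 of 9 arrays the best match had the same number. The titles give the numbers, which were taken to pair the samples for the same-numbered differences and for the block. The main fit did not use this pairing. Blocked values are given for list genes whose call the block changed, and beside some other results. Alternatives were the block, omission of each array in turn, testing without a filter, a stricter filter at 8.07 (75th percentile), quantile normalization, median centring, the mean of probe sets, an intensity trend and fits on the 2 groups compared. Leaving out an array with the block, and values of list genes without the array labelled CD24 siRNA replicate 3, were added after seeing the data.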

Additional observations from a re-analysis of the deposited data

How the results depend on the processing

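Of the 6 members tested against vehicle, the 1 called, Adamts9, was called in both comparisons with the replicate block, no filter, the filter at the 75th percentile, which removed Adamts4 and Adamts15, quantile normalization, median centring, the mean of probe sets (which cannot move members with 1 probe set) and an intensity trend. With the arrays of the 2 groups alone it was lost with scrambled siRNA (adjusted p = 0.0680). On leaving out 1 array, which left 2 in its group with the spread pooled over all groups, 0 to 1 of the 6 were called in each comparison, and 1 of 6 with the block in those fits. Between CD24 siRNA and scrambled siRNA 0 of 8 were called in every setting. The replicate block changed no call of a member. Of 402 differences of members recomputed, 210 had the same value by the construction of the alternative (an array of the third group left out, or other genes, another spread or the mean of 1 probe set in the fit) and 192 moved. Of the 192, 170 kept their sign and 22 changed it, none of them called and all on leaving out 1 array without the block. Over those 9 fits the differences of CD24 siRNA from vehicle ranged from -0.18 to 0.36 for Adamts1, from -0.25 to 0.094 for Adamts4 and from -0.0087 to 0.22 for Adamts15. Those of scrambled siRNA from vehicle ranged from -0.21 to 0.16 for Adamts4 and from -0.0017 to 0.32 for Bmp1. Those between CD24 siRNA and scrambled siRNA ranged from -0.24 to 0.13 for Adamts4, from -0.14 to 0.44 for Adamts5, from -0.18 to 0.15 for Adamts9, from -0.073 to 0.13 for Adamts12, from -0.17 to 0.073 for Adamts15, from -0.27 to 0.18 for Tll1 and from -0.079 to 0.16 for Bmp1. Over all settings the differences of Tll1 from vehicle were 2.80 to 3.52 and those of Adamts5 -2.82 to -2.20. The causes of the other changes were not tested. Adamts15 and the vehicle values of Tll1 lie near the filter level, where signal over background limits the measurement.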

Other observations

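After the group means were subtracted, some members still moved together over the 9 arrays. Of the 28 pairs of members the highest correlations of these deviations were those of Tll1 with Adamts1 (r = 0.86), Adamts5 with Adamts9 (r = 0.84) and Adamts4 with Bmp1 (r = 0.83), and Adamts4 with Adamts9 had the lowest (r = -0.80). Over the 9 values themselves, Adamts5 and Adamts9 had r = -0.72, the opposite sign. The arrays of a replicate number share their deviations, so that few of the 9 points are independent, and these values are a description.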
